A study of Homo sapiens with 8 samples.

Results

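Complement is a system of secreted proteases and surface proteins that tags cells and microbes for removal and recruits leukocytes. C1r and C1s start the classical pathway, factor B and C3 amplify the signal, and the C3a fragment acts through the receptor C3AR1. Factor I, CD46, CD55 and CD59 hold the system in check on host cells. The liver makes most of the circulating proteins, and carcinoma cells also express a number of these genes, CD46, CD55 and CD59 among them.

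The 9 genes described are C1R, C1S, C3, CFB, C3AR1, CFI, CD46, CD55 and CD59, out of 61228 gene names in each table. They were chosen by symbol, and C3AR1 was selected on its near loss with ACBI1 in HCC44, so values from that comparison are given as a description without a test. RNA was measured in 2 human lines derived from lung cancer, H1975 and HCC44, both labelled wild type and both grown with heat-inactivated bovine serum. Each line received the solvent DMSO or ACBI1 for 96 hours, at a concentration the labels write as 1 mM, although the unit is uncertain, since degraders of this kind are used at much lower concentrations. ACBI1 recruits the VHL ubiquitin ligase to the SWI/SNF subunits SMARCA2, SMARCA4 and PBRM1, so that these proteins are broken down. Each of the 4 groups held 2 libraries, named replicates 1 and 2, and the labels do not say whether they came from separate cultures. The p-values therefore measure the spread between these libraries, which may be technical.

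Counts assigned to genes ranged from 62467286 to 70455517 per library, and levels are CPM, the counts scaled to a common library size of 1e+06, on TMM-scaled library sizes, as mean ± SD with n = 2. The 6 epithelial markers EPCAM, KRT8, KRT18, KRT19, KRT7 and CDH1 were all above 1 CPM in every group, with a summed level of 5137 to 5393 CPM in H1975 DMSO, 2331 to 2808 in H1975 ACBI1, 940 to 980 in HCC44 DMSO and 1199 to 1658 in HCC44 ACBI1. The 4 hepatocyte markers ALB, APOA1, TTR and F2 summed to 0.118 to 0.585 CPM over the 8 libraries. The 7 fibroblast markers summed to 48.9 to 72.1 CPM in H1975 DMSO, 25.6 to 30.5 in H1975 ACBI1, 74.4 to 92.7 in HCC44 DMSO and 207 to 411 in HCC44 ACBI1, where COL1A1 averaged 302 CPM and DCN had no counts in any group. In bulk RNA, fewer cells that express a gene and less RNA per cell cannot be told apart.

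The sequence upstream of 4 of the genes is shown because C3AR1 had the largest difference of all 9 in HCC44 and C1R, CFI and CD59 were lower with ACBI1 in H1975, as shown further on. RefSeq promoter windows (GRCh38.p14) were matched for 7 of the 9 genes, all but C1S and C3. Each line gives, on the gene's own strand and 5′ to 3′, the bases before the RefSeq start that lie in no GENCODE 29 exon. The windows of CFB and CD55 lie wholly in annotated exons and are not printed. Those of CD46, which was also lower in H1975, held no match and are not printed either, although CFI, printed below, held none. Capitals mark letters that match a searched motif. The stretch of C3AR1 is chr12:8066472-8066609 (minus strand), that of C1R is chr12:7092608-7092695 (minus strand), that of CFI is chr4:109802180-109802249 (minus strand) and that of CD59 is chr11:33736492-33736729 (minus strand).
C3AR1: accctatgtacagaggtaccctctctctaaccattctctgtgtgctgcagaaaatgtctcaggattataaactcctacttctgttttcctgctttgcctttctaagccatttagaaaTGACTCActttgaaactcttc
C1R: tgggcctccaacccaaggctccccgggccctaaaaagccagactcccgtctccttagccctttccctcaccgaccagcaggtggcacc
CFI: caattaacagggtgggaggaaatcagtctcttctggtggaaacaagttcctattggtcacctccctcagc
CD59: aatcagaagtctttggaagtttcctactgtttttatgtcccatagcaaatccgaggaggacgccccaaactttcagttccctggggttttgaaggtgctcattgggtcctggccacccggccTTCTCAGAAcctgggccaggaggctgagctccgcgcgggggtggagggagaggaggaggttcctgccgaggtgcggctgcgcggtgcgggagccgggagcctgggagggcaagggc
The motifs were AP-1 (TGANTCA), the interferon regulatory factor element (GAAANNGAA), the gamma-activated site bound by STAT factors (TTCNNNGAA) and C/EBP (TTGCNNAA). Each was searched on both strands in the 250 bases before the start, and no pattern is contained in another. The window of C3AR1 held an AP-1 match, TGACTCA, whose first base lies 133 bases before the start. Of 35097 windows of this length, 6.57% held that motif. CFI held none of the 4 motifs. CD59 held a gamma-activated site match, TTCTCAGAA, 128 bases before its farthest upstream start, a motif found in 6.56% of windows. Windows at starts farther downstream, which are not printed, held 2 AP-1 and 2 C/EBP matches for CD59 and a gamma-activated site and a C/EBP match for C1R. The farther upstream window of C1R held a C/EBP match in its exonic part, 106 bases before the start, and 9.05% of windows held that motif. The window of CFB held an interferon regulatory factor element 139 bases before the start and a gamma-activated site 92 bases before it, found in 6.88% and 6.56% of windows. These matches describe letters in the windows and say nothing of binding.

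With ACBI1, the mean levels of all 9 transcripts were lower in H1975. In HCC44 the log2 fold changes, given as a description, ran from -6.73 for C3AR1 to 0.20 for C1S. A gene was called when its adjusted p from edgeR's quasi-likelihood test, corrected over all 21307 tested genes, was under 0.05. All 9 genes passed the filter on low counts, which asks for about 0.152 CPM in 2 libraries. Of these, 7 were above that level in all 8 libraries. C3AR1 passed only through HCC44 DMSO and CFI only through H1975 DMSO, so those 2 genes are left out of the counts below. In H1975 all 7 fell, against 16.7% of all tested genes called lower, and none rose, against 14.6% called higher. Their median log2 fold change was -1.47, beside -0.01 over all tested genes. With library totals in place of TMM factors the median of all genes moved by 0.19 on the log2 scale in H1975, and directions are relative to the TMM scale. Of the genes called in H1975, 46.6% were higher on the TMM scale and 72.3% with library totals, and all 9 genes stayed below 0 there. In HCC44 the split went from 3720 higher and 3718 lower to 60.5% higher, and the share higher, for the difference between the lines, went from 54.9% to 40.5%. In HCC44, the comparison that the choice of genes used, the median log2 fold change of the 7 was -0.26 and no call is counted.

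**Figure D1:**
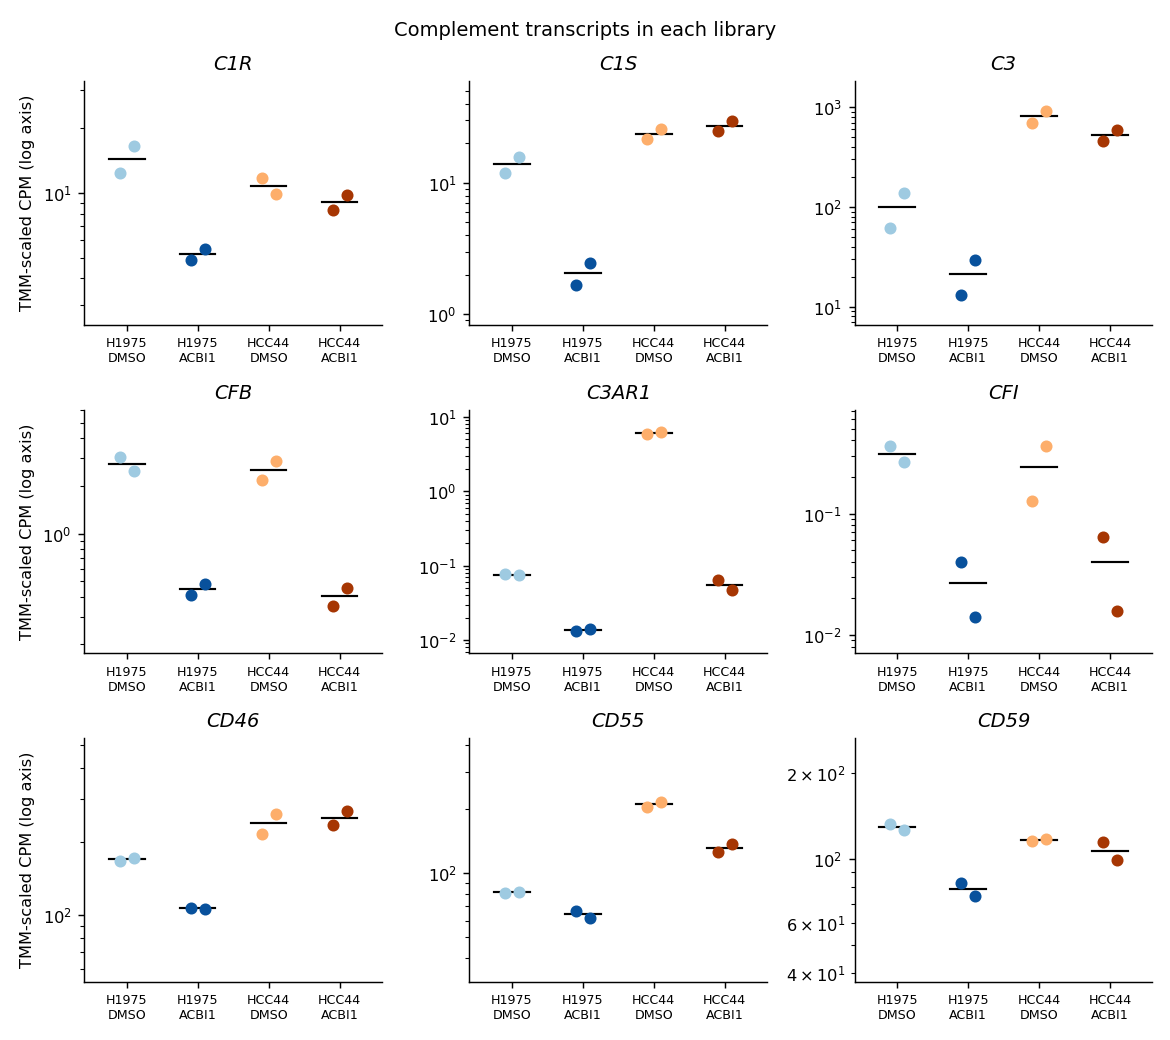
TMM-scaled CPM on a log axis for the 9 complement genes, with 1 point per library, the group mean as a black line, and DMSO and ACBI1 groups of each line side by side. C1R, C1S, CD46 and CD59 drop mainly in H1975. C3 lies lower with ACBI1 in both lines, by more in H1975, where its replicates lie far apart. CFB drops alike in both lines, and C3AR1 is high in the HCC44 DMSO libraries at 5.91 and 6.29 CPM.

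C1R and C1S encode the serine proteases of the C1 complex, and the genes lie on chromosome 12 (C1R at 7080199-7092607, C1S at 6988259-7071032, GENCODE 29 on GRCh38). C1S was at 11.9 and 15.8 CPM in the H1975 DMSO libraries and at 1.66 and 2.45 CPM in the H1975 ACBI1 libraries. The ACBI1 libraries lay well under both DMSO libraries. In H1975 C1S fell by 2.76 in log2 units (SE 0.22, adjusted p 1.98e-05 by edgeR), which is 6.76-fold. C1R was at 12.3 and 16.5 CPM with DMSO and at 4.87 and 5.5 CPM with ACBI1 in that line. C1R fell by 1.47 (SE 0.19, adjusted p 0.000269), again without overlap.

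In HCC44 both proteases stayed near their DMSO level. C1S was at 21.6 and 25.9 CPM with DMSO and at 24.9 and 29.9 CPM with ACBI1, so the groups overlapped, and the log2 fold change was 0.20 ± 0.19 (SE). C1R was at 11.7 and 9.89 CPM with DMSO and at 8.27 and 9.77 CPM with ACBI1, a log2 fold change of -0.26 ± 0.18. The response in HCC44 minus that in H1975 was 2.96 ± 0.29 for C1S and 1.22 ± 0.26 for C1R, given without a test. The C1R difference became 0.94 without H1975 DMSO replicate 2. C1R shares 11.4% of its exon bases with C1RL and C1S 3.54% with EMG1 in GENCODE 29, and the counting rule for such bases is not given in the sources used here.

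C3 is the central component, and its cleavage products mark surfaces and feed every later step. C3 was the most abundant of the 9 transcripts in HCC44 DMSO, at 699 and 912 CPM. It was at 61.4 and 137 CPM in H1975 DMSO and at 13.2 and 29.6 CPM in H1975 ACBI1. The replicates within each H1975 group lay more than 2-fold apart, yet both ACBI1 libraries were under both DMSO libraries. In H1975 C3 fell by 2.21 in log2 units (SE 0.48, adjusted p 0.0126 by edgeR), a 4.63-fold difference. The call was lost without the filter (adjusted p 0.107), without DMSO replicate 2 (log2 fold change -1.47, adjusted p 0.163), without ACBI1 replicate 1 (-1.72, 0.162) and without ACBI1 replicate 2 (-2.89, 0.0745). In HCC44 ACBI1 the level was 454 and 595 CPM, below both DMSO libraries, with a log2 fold change of -0.62 ± 0.45. The response in HCC44 minus that in H1975 was 1.59 ± 0.65, given without a test, and became 0.85 without H1975 DMSO replicate 2 and 2.27 without H1975 ACBI1 replicate 2.

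CFB encodes factor B, the protease of the alternative pathway convertase. Its levels were close in the 2 lines, at 3.03 and 2.47 CPM in H1975 DMSO and 2.18 and 2.85 CPM in HCC44 DMSO. With ACBI1 they were 0.412 and 0.481 CPM in H1975 and 0.352 and 0.456 CPM in HCC44. Every ACBI1 library was at least 4.77-fold under the DMSO libraries of its line. In H1975 CFB fell by 2.62 (SE 0.29, adjusted p 0.000112 by edgeR), and the log2 fold change in HCC44 was -2.63 ± 0.29. The responses of the lines differed by -0.01 ± 0.39. CFB (chromosome 6, 31945650-31952084) shares 45.5% of its exon bases with other genes. C2 ends at 31945672, so nearly all of these bases are shared with the readthrough gene AL645922.1. That gene name is not among those counted, and reads there may have been left out or counted elsewhere. C2 moved the other way in H1975, as given below.

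C3AR1 is a G protein-coupled receptor for C3a that is best known from myeloid cells, and it lies at 8058302-8066471 on the minus strand of chromosome 12. It was at 5.91 and 6.29 CPM in the HCC44 DMSO libraries and at 0.064 and 0.0472 CPM in the HCC44 ACBI1 libraries. The counts behind these values were 372 and 401 with DMSO and 4 and 3 with ACBI1. Both ACBI1 libraries were at least 92.4-fold under both DMSO libraries. In H1975 the transcript was near the counting limit in every library, with 5 counts in each DMSO library and 1 in each ACBI1 library. The H1975 ratio of DMSO to ACBI1 was 5.53, with an exact 95% counting interval of 1.18 to 51.9. C3AR1 passed the threshold in H1975 (adjusted p 0.0358 by edgeR), but over 10 alternatives its adjusted p ranged from 0.0324 to 0.149 and 3 kept the call. DESeq2, library totals, no filter and the omission of any of the 4 H1975 libraries each ended it. In HCC44 DMSO the level was 80.5-fold that of H1975 DMSO, given without a test.

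Because C3AR1 is best known from myeloid cells, leukocyte markers were read in the same libraries. The 9 markers summed to 4.22 to 4.34 CPM in HCC44 DMSO and to 1.89 to 2.44 CPM in HCC44 ACBI1. CD14, a coreceptor for lipopolysaccharide, was the highest of them in both groups, at 3.38 CPM and 1.05 CPM. PTPRC, the gene of the pan-leukocyte antigen CD45, was at 0.00784 CPM in HCC44 DMSO, where C3AR1 was at 6.1 CPM. TYROBP and CD163 had no counts there, and AIF1 had none in any group. In H1975 the sum was 17.2 to 19.6 CPM with DMSO and 11.7 to 16.5 CPM with ACBI1, of which CSF1R gave 15.2 and 12.3 CPM. The 5 endothelial markers summed to 3.48 to 4.02 CPM in HCC44 DMSO and 1.07 to 1.13 CPM in HCC44 ACBI1, and their part in the C3AR1 result was not tested.

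The transcripts whose pattern over the 8 libraries was most like that of C3AR1, by Pearson's r of log2(CPM + 0.1) among 12670 genes that reached 5 CPM in some group, were PNPLA1 (r = 0.9985), PDXK (0.9960), SEMA3F (0.9955), ADGRG3 (0.9955) and GLCE (0.9954). All 5 were highest in HCC44 DMSO, and the 8 points share 4 groups, so r mostly reflects that group standing apart. The depth of the loss differed among them. PNPLA1 was at 24.7 CPM in HCC44 DMSO and 0.278 CPM in HCC44 ACBI1. ADGRG3 was at 22.3 and 0.238 CPM. PDXK was at 299 and 157 CPM.

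CFI encodes factor I, the protease that cleaves C3b and C4b. It was a rare transcript, with 23 and 18 counts in the DMSO libraries and 3 and 1 in the ACBI1 libraries of H1975, and 8 and 23 against 4 and 1 in HCC44. The ACBI1 libraries were under the DMSO libraries in both lines. The ratio of DMSO to ACBI1 was 11.3 in H1975 and 6.17 in HCC44, given as a description. The log2 fold change in H1975 was -3.42 ± 0.78 (SE), given without a test because CFI passed the filter only through H1975 DMSO, the higher group of that comparison. In HCC44 the log2 fold change of -2.57 ± 0.78 became -1.63 without DMSO replicate 2 and -3.80 without ACBI1 replicate 1. CFI shares 32% of its exon bases with AC126283.2, a gene name that the tables do not list.

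CD46, CD55 and CD59 are membrane proteins that protect the cell's own surface. CD46 is a cofactor for factor I, CD55 speeds the decay of C3 convertases and CD59 blocks the membrane attack complex. They were the abundant regulators in both lines and had smaller log2 fold changes in H1975 than the other 6 genes. CD46 was at 167 and 172 CPM in H1975 DMSO and at 107 and 106 CPM in H1975 ACBI1. In log2 units CD46 fell by 0.66 (SE 0.11, adjusted p 0.00104 by edgeR). CD59 was at 133 and 127 CPM with DMSO and at 82.5 and 74.6 CPM with ACBI1 in H1975, and it fell by 0.73 (SE 0.10, adjusted p 0.00035). For both genes the H1975 groups stood well apart and every alternative kept the call.

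CD55 in H1975 was the smallest change, from 81.1 and 81.5 CPM to 66.3 and 61.8 CPM, a fall of 0.34 (SE 0.09, adjusted p 0.0126 by edgeR). It was not called with library totals (log2 fold change -0.14, adjusted p 0.236) or with any 1 of the 4 H1975 libraries left out (adjusted p 0.0504 to 0.173). In HCC44 CD55 was at 205 and 217 CPM with DMSO and at 126 and 138 CPM with ACBI1, with no overlap. Its log2 fold change was -0.68 ± 0.09 (SE) and became -0.59 with library totals. CD46 in HCC44 was at 215 and 261 CPM with DMSO and at 235 and 267 CPM with ACBI1, groups that overlap. Its log2 fold change of 0.08 ± 0.10 was -0.06 without DMSO replicate 1 and 0.23 without DMSO replicate 2. CD59 was at 116 and 118 CPM with DMSO and at 115 and 99.4 CPM with ACBI1 in HCC44 (-0.13 ± 0.10). The CD59 value became -0.24 without ACBI1 replicate 1 and -0.03 without ACBI1 replicate 2. The response in HCC44 minus that in H1975 was 0.74 ± 0.15 for CD46, 0.59 ± 0.14 for CD59 and -0.34 ± 0.12 for CD55, without a test. The CD46 difference became 0.89 without HCC44 DMSO replicate 2.

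**Figure D2:**
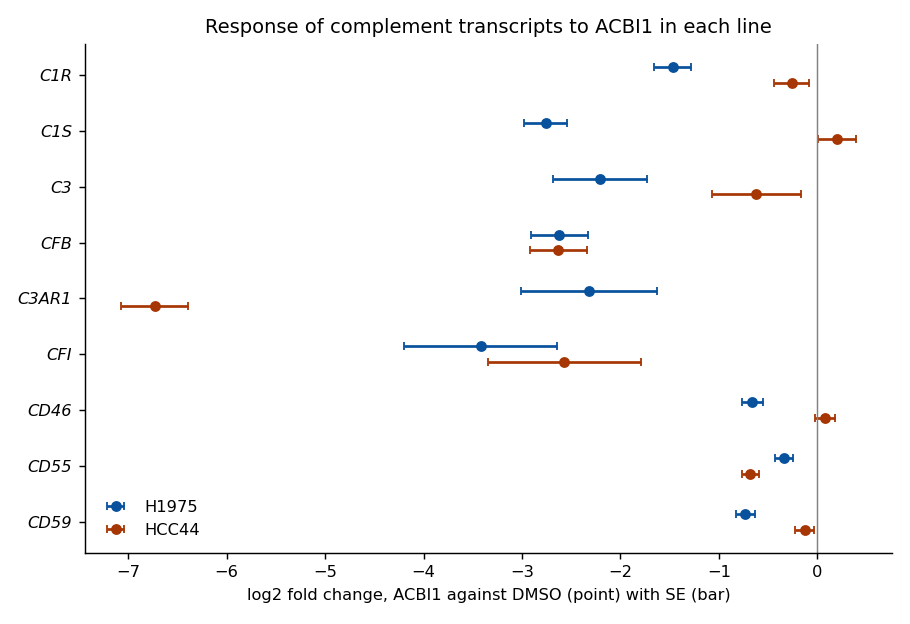
Log2 fold change of ACBI1 against DMSO (points) with its standard error (bars) for the 9 genes in H1975 (blue) and HCC44 (brown). All H1975 points are below 0, the points of CFB coincide at -2.62 and -2.63, and C3AR1 in HCC44 is the most negative at -6.73.

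The solvent-treated lines were compared to ask which line carries more of each transcript without ACBI1. Of the 7 genes above the filter level in all libraries, 4 were higher in HCC44 DMSO, against 31.6% of all tested genes called higher, and none was called lower, against 36.4%. C3 was 8.13-fold higher in HCC44 (805 ± 151 CPM against 99 ± 53.1 CPM, adjusted p 0.00101 by edgeR). Its log2 difference of 3.02 ranged from 2.55 to 3.76 over the alternatives, highest without H1975 DMSO replicate 2. CD55 was 2.6-fold higher (211 ± 8.7 against 81.3 ± 0.32 CPM, adjusted p 1.7e-07), C1S 1.71-fold (adjusted p 0.00421) and CD46 1.41-fold (adjusted p 0.00156). CFB, CD59 and C1R were not called (log2 differences -0.13, -0.15 and -0.42, adjusted p 0.667, 0.19 and 0.0603). C1R passed the threshold with library totals, without the filter and without H1975 DMSO replicate 1, as lower in HCC44. CD59 passed it with library totals only.

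Levels were compared between genes per kilobase of exon, using GENCODE 29 exon lengths. In HCC44 DMSO the order was C3 (96.7 ± 18 CPM per kilobase), CD55 (35.7 ± 1.5), CD46 (27.3 ± 3.7), CD59 (11.3 ± 0.13), C1S (3.68 ± 0.47), C3AR1 (2.84 ± 0.12), C1R (1.83 ± 0.21), CFB (0.503 ± 0.096) and CFI (0.05 ± 0.034). In H1975 DMSO CD46 led at 19.4 ± 0.39, and CD55 (13.8 ± 0.054), CD59 (12.6 ± 0.36) and C3 (11.9 ± 6.4) followed, of which C3 did not separate from its neighbours beyond its spread. C1R (2.45 ± 0.5) and C1S (2.15 ± 0.42) did not separate from each other in H1975 DMSO either. With ACBI1 C1S dropped under C1R in H1975, at 0.318 ± 0.086 and 0.881 ± 0.076.

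**Figure D3:**
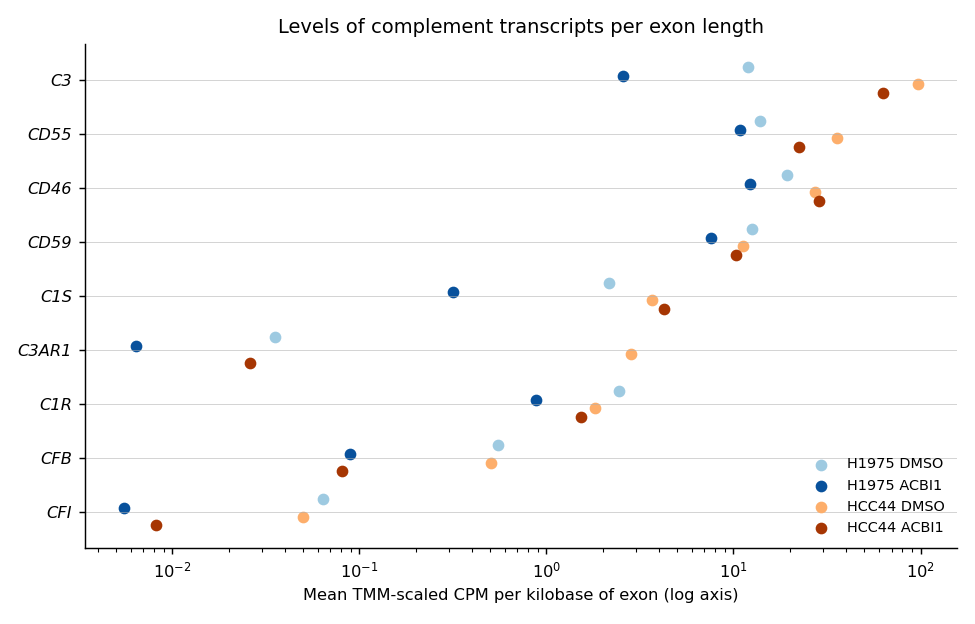
Mean TMM-scaled CPM per kilobase of exon on a log axis for the 9 genes in the 4 groups. C3, CD55, CD46 and CD59 lie at 2.57 to 96.7 in every group, and C3AR1 spans from 0.0064 in H1975 ACBI1 to 2.84 in HCC44 DMSO.

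A wider list of 53 complement genes, which contains the 9, shows how the rest of the pathway stood. Of the 53, 29 passed the filter and 10 had no counts in any library, among them C1QA, C1QB and C1QC, which encode the C1q chains that recruit C1r and C1s. The recognition molecules MBL2 and FCN2 and the terminal components C6 and C8B also had no counts. Of the 44 genes beyond the 9, 14 were above the filter level in all libraries. In H1975, 3 of the 14 rose and 3 fell, beside 14.6% and 16.7% of all tested genes, with a median log2 fold change of 0.23 beside -0.01. In HCC44, 5 rose and 4 fell, beside 17.5% and 17.4% of all tested genes, with a median of 0.02 beside 0.01. The difference between the lines was called for 5 of the 14, against 18.6% of all tested genes.

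Among genes of pathway initiation and C3 activation, C4A and C4B, near-identical copies of the C4 gene whose counts cannot be told apart with certainty, fell in both lines. C4A was at 1.48 ± 0.36 and 0.367 ± 0.14 CPM in H1975 (adjusted p 0.0046 by edgeR). In HCC44 C4A was at 1.86 ± 0.25 and 0.51 ± 0.298 CPM (adjusted p 0.00475 by edgeR). Its HCC44 log2 fold change of -1.86 became -2.62 without ACBI1 replicate 1 and -1.36 without ACBI1 replicate 2. The log2 fold change of C4B was -2.33 in H1975 and -2.52 in HCC44 (adjusted p 0.00209 and 0.000824). C2, whose product joins C4b in the classical convertase, rose in H1975 from 1.31 ± 0.23 to 2.43 ± 0.11 CPM (adjusted p 0.0269). In HCC44 it missed the threshold (1.19 ± 0.18 and 0.707 ± 0.18 CPM, adjusted p 0.0656). The difference between the lines was called (adjusted p 0.0157), but not without HCC44 DMSO replicate 1 or HCC44 ACBI1 replicate 2 (adjusted p 0.0623 and 0.0515). The H1975 call of C2 was lost without DMSO replicate 2 and without either ACBI1 library. C1RL, a C1r-like protease gene beside C1R, fell in H1975 from 34.7 ± 0.83 to 24.7 ± 1.5 CPM and rose in HCC44 from 31.6 ± 0.89 to 58.5 ± 2.6 CPM (difference 1.38 ± 0.14 SE, adjusted p 0.000195). The H1975 call of C1RL was lost without ACBI1 replicate 1. C2 shares 38.7% of its exon bases with other genes and C1RL 17.5%, partly with genes on the opposite strand. How reads on such bases were counted is not given, so the counts of both genes are uncertain to that extent. CFD, the factor D protease that cleaves factor B, rose in HCC44 from 2.1 ± 0.27 to 4.96 ± 2.02 CPM (adjusted p 0.00378) and lay at the threshold in H1975, at 7.77 ± 0.6 and 12.5 ± 0.72 CPM (adjusted p 0.0506, called in 7 of 11 alternatives).

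C5, the precursor of the C5a peptide and of the membrane attack complex, went against C3 and CFB. C5 rose from 16.6 and 18.1 CPM to 54.5 and 75.7 CPM in H1975 (3.75-fold, adjusted p 4.31e-05 by edgeR). In HCC44 it rose from 4.91 and 3.79 CPM to 13.6 and 15.3 CPM (3.31-fold, adjusted p 5.7e-05). The ACBI1 libraries were at least 2.77-fold above the DMSO libraries in both lines. The responses of the lines differed by -0.18 ± 0.25 (SE), which was not called (adjusted p 0.673).

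Receptor genes other than C3AR1 moved in several directions. The C5a receptor gene C5AR1 fell in HCC44 from 4.81 ± 0.17 to 2.41 ± 0.074 CPM (adjusted p 0.00586 by edgeR) and was not called in H1975 (adjusted p 0.454), and the difference was called (adjusted p 0.0214). Any of 5 libraries left out ended the call of that difference (adjusted p up to 0.0688). C5AR2, which encodes the second C5a receptor, fell in HCC44 from 1.54 ± 0.16 to 0.302 ± 0.093 CPM (adjusted p 0.00035). In H1975 C5AR2 fell by 1.51 (adjusted p 0.025) from 34 counts to 13, a call lost with DESeq2 and without any 1 H1975 library.

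The leukocyte integrins CR3 and CR4 bind iC3b through alpha chains encoded by ITGAM and ITGAX, which share the beta chain encoded by ITGB2. ITGAX fell from 5.06 and 2.75 CPM to 0.279 and 0.325 CPM in H1975 and from 2.67 and 2.45 CPM to 0.128 and 0.0157 CPM in HCC44 (adjusted p 0.000173 and 6.05e-05 by edgeR). The groups stood at least 8.46-fold apart in H1975 and 19.1-fold apart in HCC44. The HCC44 ACBI1 level of ITGAX rests on 8 and 1 counts, and its log2 fold change of -5.12 became -7.18 without ACBI1 replicate 1 and -4.30 without ACBI1 replicate 2. ITGAM went the other way, from 16 counts to 181 in HCC44 (log2 fold change 3.49 ± 0.45 SE) and from 26 counts to 86 in H1975 (1.56 ± 0.43). These values are given without a test. ITGAM reached the filter level in both libraries of a group only with ACBI1, the higher group of each comparison. The H1975 log2 fold change of ITGAM became 2.29 without DMSO replicate 1 and 1.12 without DMSO replicate 2. ITGB2 rose in H1975 from 44.4 and 52.9 CPM to 83.5 and 98.6 CPM and fell in HCC44 from 172 and 165 CPM to 57.7 and 63.3 CPM. Its difference between the lines was -2.38 ± 0.16 (SE, adjusted p 2.56e-05), and every alternative kept that call.

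Among the soluble and membrane regulators outside the 9 that are named, CLU and SUSD4 rose in HCC44 and none was called in H1975. CLU, which encodes the chaperone clusterin that binds terminal complexes, rose in HCC44 from 12 and 20 CPM to 29.2 and 60.7 CPM (adjusted p 0.0186 by edgeR), a call lost without the filter and without DMSO replicate 1 or ACBI1 replicate 2. SUSD4, a membrane inhibitor of C3 convertases, rose in HCC44 from 2.33 ± 0.26 to 3.8 ± 0.76 CPM (adjusted p 0.0335), a call lost without either DMSO library or without ACBI1 replicate 1. In H1975 it was not called (adjusted p 0.179), and the difference was called (adjusted p 0.0317), a call lost when any of 6 libraries was left out (adjusted p 0.0648 to 0.134). The lines did not differ past the threshold for CLU (adjusted p 0.205) but did without HCC44 ACBI1 replicate 1 (0.0294), and CLU was called in H1975 when the line was fitted alone (0.0382). SERPING1, the gene of the C1 inhibitor, was called in neither line, at 0.616 ± 0.12 and 0.691 ± 0.057 CPM in H1975 and 1.37 ± 0.43 and 2.03 ± 0.25 CPM in HCC44.

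**Figure D4:**
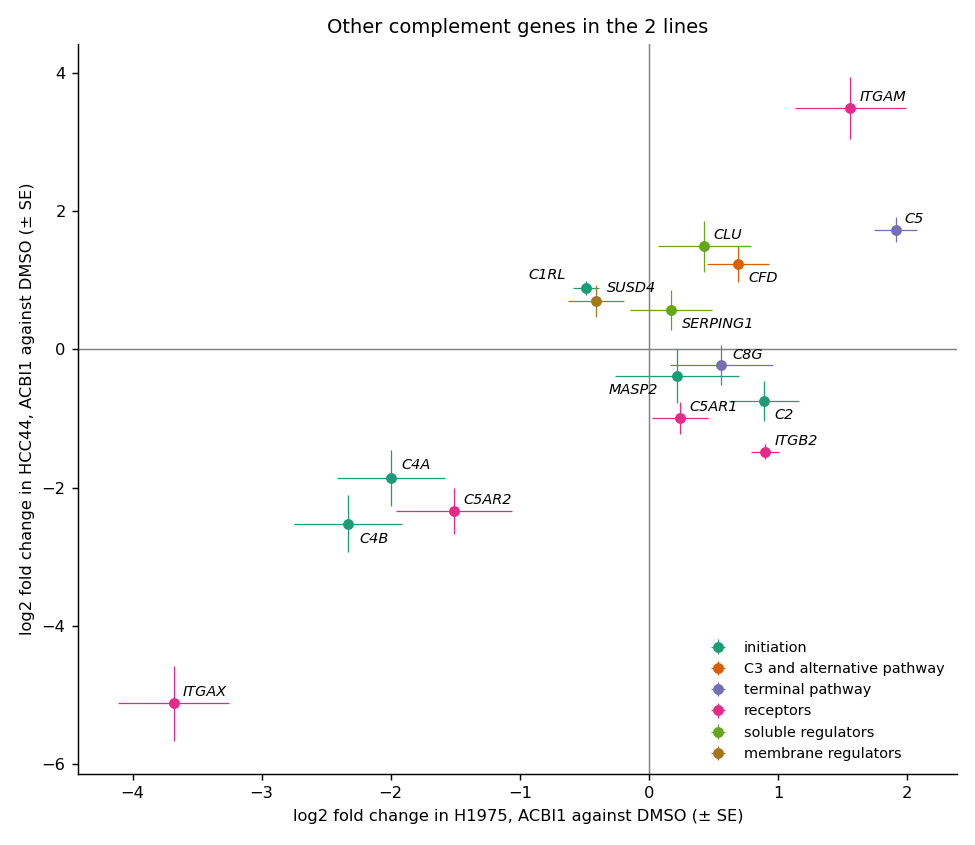
Log2 fold change of ACBI1 against DMSO in H1975 (x) and HCC44 (y), each with its standard error, for the 16 other complement genes that averaged 1 CPM or more in any group, coloured by role. ITGAX is lowest in both lines at -3.68 and -5.12, C5 and ITGAM are above 0 in both, and ITGB2 lies at 0.90 and -1.48.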

How the data were processed

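For each of the 8 libraries, the authors deposited raw read counts per gene name. TopHat2 2.1.1, HTSeq 0.11.0 and the build hg38 are named per the submitters' processing notes. The annotation, strand setting and overlap rule are not given in the sources used here, so antisense and overlapping genes are uncertain. Summary rows, 14.3 to 15.8% of each table, were left out.

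Counts were analysed with edgeR 4.0.16 in R 4.3.3. The steps were filterByExpr, TMM factors, a mean per group over all 8 libraries with 4 residual degrees of freedom, and the robust two-sided quasi-likelihood F-test with Benjamini-Hochberg adjustment over 21307 genes. The SE is the log2 fold change divided by the square root of F. Counting intervals are exact (conditional binomial, 95%) and cover counting error only. Replicates differed by more than sampling noise (chi-square per degree of freedom 24 to 48.4). The procedure was also run on simulated data with far fewer changed genes than were called here. That run cannot test the TMM scale and is not used as support.

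Named genes were the 9, list genes that averaged 1 CPM or more in any group, and the 5 genes most like C3AR1. One gene was left out of the wider list and is not reported here, and list genes under 1 CPM enter counts only. The genes, lists, motifs and tests were chosen with earlier results of these data known. Alternatives were DESeq2 1.42.0, RLE factors, library totals, no filter, 1 CPM in 2 libraries, the 2 groups alone, the replicate number as a block and each library left out. Coordinates and exon lengths are from GENCODE 29. Figures used matplotlib 3.10.9.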

Additional observations from a re-analysis of the deposited data

Results flagged for a closer look

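Of the 16 complement genes outside the 9 that averaged 1 CPM or more in any group, 5 responded differently to ACBI1 in the lines. This is by the edgeR test of HCC44 minus H1975 on the log2 scale, which called 18.6% of all tested genes. The calls for C2, C5AR1 and SUSD4 were lost with some single libraries left out, as given above. C1RL (1.38) and ITGB2 (-2.38) changed in opposite directions in the lines. C2 (-1.64) rose in H1975 and missed the threshold in HCC44, C5AR1 (-1.23) fell in HCC44, and SUSD4 (1.11) rose in HCC44.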

How the results depend on the processing

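The 7 complement genes called in H1975 numbered 7 with DESeq2, RLE factors, 1 CPM in 2 libraries, the 2 groups alone and the replicate block, 6 with library totals or no filter, and 5 to 6 with a library left out. The 4 called between the DMSO groups numbered 4 to 6 over all alternatives. With a library left out, genes called overall numbered 3690 to 4590 in H1975 (6663 with all libraries), 4945 to 6629 in HCC44 (7438) and 2341 to 4134 for the difference (3967), and list genes outside the 9 called numbered 6 to 8 in H1975 (10 with all) and 3 to 6 for the difference (6 with all). Fewer samples entered those fits. The list genes counted here are all those tested outside the 9, which were 20 with all libraries, and not only the 14 above the filter level throughout. Of 1168 values of single genes under the alternatives, 1081 kept their direction and side of the threshold or, where untested, stayed within the SE. Another 52 lost and 24 gained the call, 11 moved, and none reversed past the threshold. Same-numbered libraries deviated together weakly (correlations of 0.374 in H1975 and 0.109 in HCC44), and the labels name no shared batch. With the replicate block, 9103 genes were called in H1975, 9533 in HCC44 and 6358 for the difference, and 6 single values gained the call. They were C1R between the DMSO groups (edgeR adjusted p 0.0245), CFD and CLU in H1975 (0.00445 and 0.00375) and C2 in HCC44 (0.0279). The others were the differences of CLU (0.000346) and ITGAM. No p is given for ITGAM, which reached the filter level in both libraries of a group only with ACBI1. The C3AR1 and CFI values rest on few reads in most groups. The totals of values that lost or gained the call include CFI in H1975 and ITGAM, which are given above without a test. The counts of list genes outside the 9 include ITGAM as well.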
